A study of Homo sapiens with 7 samples.

Results

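The genes of the cytosolic ribosome's proteins were followed through 7 RNA libraries of HUDEP-2, an immortalised human line of red cell precursors whose maturation can be started in culture. Members were chosen by symbol alone, as RPL or RPS followed by a number, with RPLP0, RPLP1, RPLP2 and RPSA added, which gave 86 genes of 32738 gene rows. Of these, 53 name proteins of the large subunit and 33 name proteins of the small subunit, and 9 are paralogues marked by an L in the symbol, such as RPL22L1. Per the labels, the cells were grown with stem cell factor, erythropoietin, dexamethasone and doxycycline, infected with lentivirus for CRISPR interference, and moved for 72 h to a medium for erythroid differentiation that held 3 IU/ml erythropoietin. In CRISPR interference a guide RNA brings a nuclease-dead Cas9 to a chosen stretch of DNA, where it lowers transcription. The non-targeting or control group of 3 libraries carried a non-targeting guide, and 2 libraries each carried guide 1 or guide 2, which the labels place at an enhancer of TMCC2, a gene of a transmembrane and coiled-coil domain protein. All groups are 1 cell line under the same culture and infection, and the labels do not state whether replicates came from separate cultures. The p-values therefore reflect only how far these samples spread, and that spread may be technical.

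A ribosome is built from a small subunit, which reads the mRNA, and a large subunit, which joins amino acids into protein. Most of its proteins are present in equal number, and mRNAs of these proteins typically begin with a C followed by an unbroken run of C and T, called a TOP motif, through which mTOR signalling controls their translation. In red cell precursors the ribosomes mostly make globin, and loss of one copy of certain ribosomal protein genes causes Diamond-Blackfan anaemia, a failure of red cell production.

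The guide sequences are shown because they define the groups. They are given 5′ to 3′ as the labels list them.
guide 1: gtcgtgctgcaggtgaagtg
guide 2: ccatccttcagagtaaacag
non-targeting guide: atcgcgaggacccgttccgcc

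Gene starts were read from RefSeq promoters (GRCh38.p14), in which 68 of the 86 members were found by symbol. A start was called pyrimidine-rich when its first base was C and at least 4 more bases of C or T followed on the gene's strand. At least 1 such start was found for 47 of the 68 members (69.1%), against 988 of 15843 protein-coding genes (6.24%) and 1429 of all 35116 starts (4.07%). The share was 67.4% for large subunit genes (29 of 43) and 72.0% for small subunit genes (18 of 25). It was 8.7% for genes of mitochondrial ribosomal proteins (6 of 69). Of the 6 L paralogues found, 1 had such a start, RPL22L1. The windows below run from 15 bases before the start to 15 bases from it onwards, 5′ to 3′ on the gene's strand, with the run of C and T from the first transcribed base in capitals. RPS12, RPS19 and RPL41 are shown as the members of highest level per length, RPS6 and RPS24 as small subunit proteins named for a kinase target and for anaemia, and the pairs to set a gene beside its paralogue.
RPS12 (chr6:132814554-132814583, plus strand): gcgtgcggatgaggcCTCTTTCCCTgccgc
RPS19 (chr19:41860240-41860269, plus strand): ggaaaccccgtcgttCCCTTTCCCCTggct
RPL41 (chr12:56116618-56116647, plus strand): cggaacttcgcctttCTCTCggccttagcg
RPS6 (chr9:19380222-19380251, minus strand): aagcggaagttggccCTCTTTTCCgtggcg
RPS24 (chr10:78033848-78033877, plus strand): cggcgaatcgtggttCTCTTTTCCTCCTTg
RPL22 (chr1:6199581-6199610, minus strand): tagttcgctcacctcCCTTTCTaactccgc
RPL22L1 (chr3:170870181-170870210, minus strand): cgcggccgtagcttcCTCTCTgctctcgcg
RPS27 (chr1:153990747-153990776, plus strand): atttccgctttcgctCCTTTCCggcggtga
RPS27L (chr15:63157463-63157492, minus strand): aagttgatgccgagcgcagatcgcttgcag
RPL36A (chrX:101390996-101391025, plus strand): tttgcctcgcggtttCTTTCTTTCCgcgcc
RPL36AL (chr14:49620612-49620641, minus strand): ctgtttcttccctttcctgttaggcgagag
The runs shown were 5 bases long in RPL41 and 14 bases long in RPS24. RPS27L and RPL36AL have no capitals because neither window holds a run that meets this definition. A second annotated start of RPS19 has no such run. A match describes the letters at an annotated start, and starts were not measured in these libraries.

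The authors deposited raw counts per gene, and each library held 9780800 to 11350113 counts. The targeted gene TMCC2 checked the labels: it stood at 869 ± 58.5 CPM (counts scaled to library size; SD, n = 3) in the non-targeting group, 224 ± 7.37 with guide 1 (n = 2) and 245 ± 21.9 with guide 2 (n = 2). It was called lower in both guide groups by edgeR's quasi-likelihood test, with log2 fold changes of -1.96 and -1.83 and Benjamini-Hochberg adjusted p of 8.58e-07 and 1.98e-06. Of 10 erythroid markers, none was at 0 in all libraries, and their summed level was 223513 to 257909 CPM of total counts in the non-targeting group, 259651 to 260709 with guide 1 and 246691 to 251658 with guide 2. Markers of most other cells were low: 8 neutrophil and monocyte markers summed to 0.668 to 2.62 CPM, 5 of 7 lymphocyte markers were at 0 throughout, and 4 of 5 fibroblast and endothelium markers were at 0 throughout. The 6 megakaryocyte markers were not all low: they summed to 176 to 213 CPM, with 2 of them tested and 2 at 0 throughout. Non-targeting replicate 1 and guide 2 replicate 2 stood apart from the other libraries in the ribosomal protein genes, as the values below show. Results that rest on them are given with and without them. Non-targeting replicate 1 also differed from its group across the table. A chi-square statistic per degree of freedom, comparing counts of 2 libraries, was 27.2 and 25.1 against non-targeting replicates 2 and 3. It was 3.03 between those 2, 2.12 between the guide 1 libraries and 4.65 between the guide 2 libraries.

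Ribosomal protein genes took between 8.05% and 9.03% of all counts. The share was 8.15%, 9.03% and 8.99% in non-targeting replicates 1 to 3, 8.99% and 8.93% under guide 1, and 8.78% and 8.05% under guide 2. The libraries with the lowest shares were in different groups, non-targeting replicate 1 and guide 2 replicate 2, and the ranges of the non-targeting and guide 2 groups overlapped. The group means were 8.72 ± 0.496% (SD, n = 3), 8.96 ± 0.0441% (n = 2) and 8.41 ± 0.519% (n = 2), in the order non-targeting, guide 1, guide 2. Without these libraries the other 5 lay between 8.78% and 9.03%. In bulk RNA, fewer cells of a kind and less RNA per cell cannot be told apart, and a share also moves with what the remaining genes take: globin genes took 23.0% to 26.9% of counts.

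Both subunits moved together between libraries. Large subunit genes took 4.43%, 4.94% and 4.89% of counts in the control libraries, 4.90% and 4.87% under guide 1, and 4.78% and 4.39% under guide 2. Small subunit genes took 3.72%, 4.08% and 4.11%, then 4.09% and 4.06%, then 3.997% and 3.66%, in the same order. The same libraries were lowest for both subunits. The ratio of large to small subunit counts stayed between 1.19 and 1.21, with group means of 1.198 ± 0.0117 (SD, n = 3) without a targeting guide, 1.198 ± 0.000272 with guide 1 and 1.199 ± 0.00254 with guide 2 (n = 2 each). The 10 members with the most counts held 36.9% to 38.7% of all ribosomal protein counts.

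**Figure D1:**
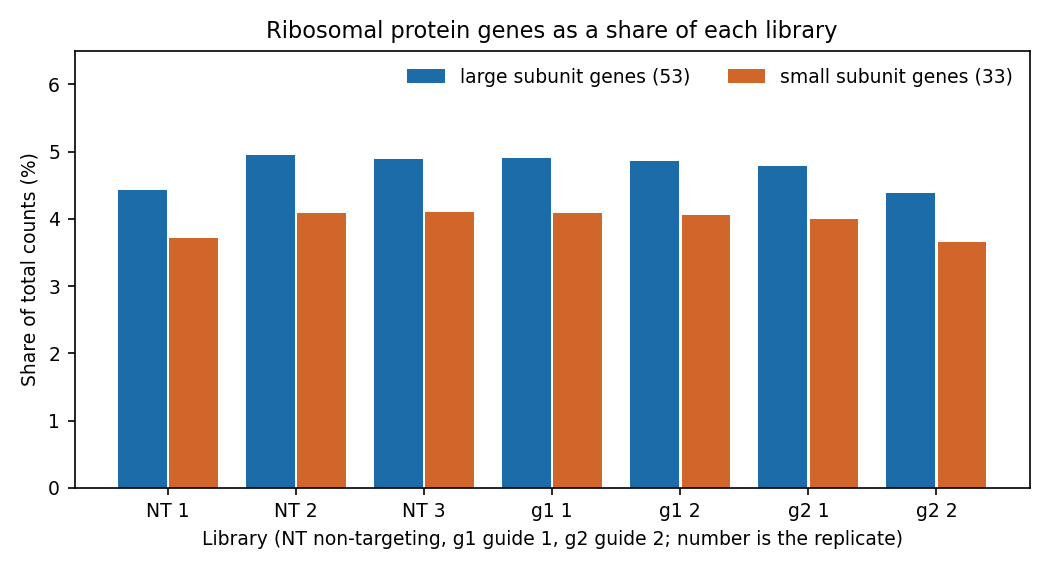
Share of total counts (%, vertical axis, from 0) in large and small subunit ribosomal protein genes for each of the 7 libraries; each bar is 1 library and there are no error bars. Non-targeting replicate 1 (4.43% and 3.72%) and guide 2 replicate 2 (4.39% and 3.66%) are the lowest for both subunits.

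The members ranged over several orders of magnitude. By mean over the libraries, 29 members were above 1000 CPM, 72 were above 100 CPM and 9 were below 10 CPM, and 28 of the 100 genes with the highest mean CPM in the whole table were members. Per kilobase of coding sequence, which leaves out the untranslated parts of an mRNA, the median of the 83 tested members with a coding length was 1780 CPM per kilobase. It was 1603 for 51 large subunit genes and 2153 for 32 small subunit genes. RPS12, a small subunit protein, had the highest level, at 13249 CPM per kilobase. RPS19, a small subunit protein and the gene most often mutated in Diamond-Blackfan anaemia, followed at 7580. RPL41, the smallest protein of the large subunit, was next at 6334 CPM per kilobase. That value rests on a coding sequence of 75 bases: by CPM alone RPL41 stood at 475, rank 56 of the 86 members and below their median of 718. At the other end stood RPL3L, RPL36A and RPS10 at 1.99, 3.43 and 3.84 CPM per kilobase.

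The values behind these extremes were far apart in counts as well. RPS12 had 4459, 5439 and 5663 CPM in the control libraries, 5488 and 5436 under guide 1, and 5312 and 4929 under guide 2. RPS19 had 2672, 3541 and 3607 CPM, then 3583 and 3516, then 3310 and 2854. In both genes non-targeting replicate 1 was lowest and guide 2 replicate 2 next, and the other 5 libraries lay close together. RPS10, also a small subunit protein and an anaemia gene, had 22, 19 and 12 counts in the control libraries, 28 and 20 under guide 1, and 30 and 10 under guide 2. The groups overlapped, and at these counts single libraries of a group differed by up to 3 times.

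Many members share long stretches with other annotated genes, and how the authors' counting treated reads that fit several places is not given in the sources used here. For each member, the share of 50-base windows of its coding sequence that also occur in another annotated gene was computed from GENCODE v29. The median share was 49.7% over 85 members, 41 of the 85 shared at least 50% of their windows and 15 shared over 90%. Members sharing under 50% had a median of 2509 CPM per kilobase (n = 42 tested), against 970 CPM per kilobase for those sharing 50% or more (n = 41). Across genes, level per kilobase and the share of windows had a Spearman coefficient of -0.42 (n = 83). This is a description across genes of the same libraries, which are not independent replicates.

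Several members of very low count were among those with shared sequence. All windows of RPS10 and RPL17, proteins of the small and the large subunit, occur in another annotated gene, and each lies within a readthrough gene of the annotation that joins it to its neighbour (RPS10-NUDT3 and RPL17-C18orf32). RPL36A, at 80.1% of windows, lies likewise within RPL36A-HNRNPH2. The 3 readthrough genes are rows of the deposited table with 0 counts in all 7 libraries. The part of the counting in these low values was not tested, and the levels of such members are uncertain one by one. Not all fully shared members were low: RPS27 and RPS28 share 100% of their windows and stood at 3472 and 4331 CPM per kilobase. RPL41 also shares 100% and stood at 6334 CPM per kilobase, but on 75 coding bases and 475 CPM.

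**Figure D2:**
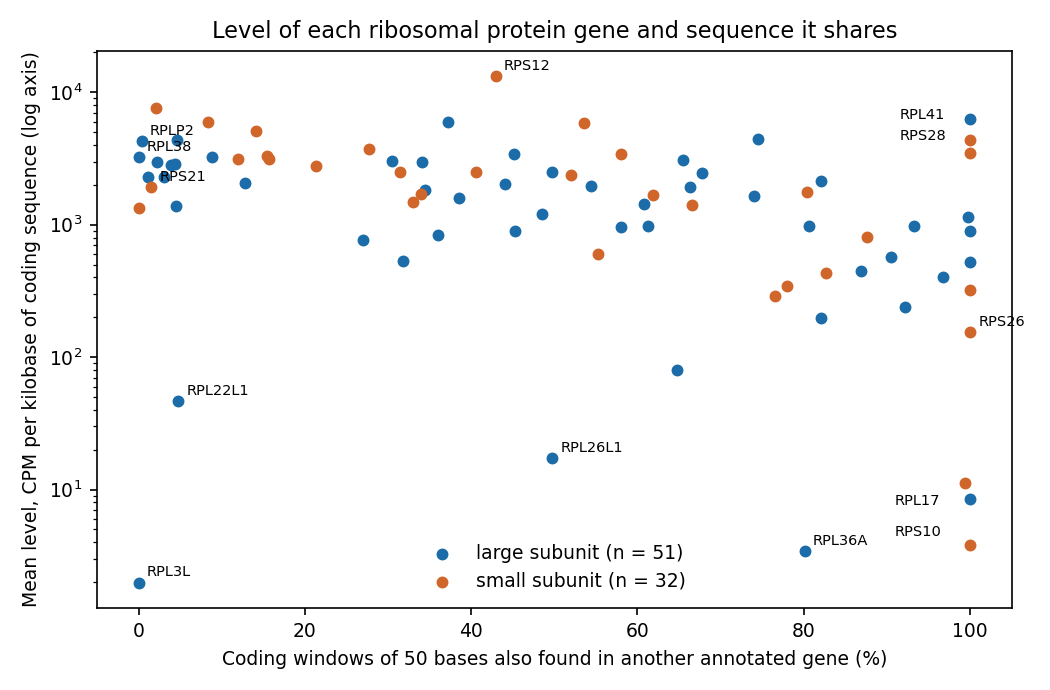
Mean level over 7 libraries (CPM per kilobase of coding sequence, log axis) against the share of 50-base coding windows found in another annotated gene (%), 1 point for each of 83 tested members coloured by subunit. RPS12 is highest at 13249, and RPS10 and RPL17 lie at the lower right.

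The 9 paralogues are copies of a ribosomal protein gene, several of which are known for expression limited to certain tissues. RPL3L, known as the form of striated muscle, had 15, 43 and 16 counts in the control libraries, 16 and 34 under guide 1, and 38 and 19 under guide 2. Its partner RPL3 had 39448 to 50530 counts, and per coding kilobase the pair stood at 1.99 and 3443 CPM. RPL10L and RPL39L, both known from the testis, had at most 1 and 4 counts in a library and were not tested, while RPL10 had 12717 to 16677 and RPL39 had 749 to 953. Per coding kilobase, RPL22L1 stood at 46.7 CPM beside 400 for RPL22, RPL26L1 at 17.3 beside 198 for RPL26, and RPL7L1, whose protein acts in ribosome assembly, at 79.9 beside 1138 for RPL7.

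RPS27L and RPL36AL were the L paralogues of highest count. RPS27L, a known p53 target, had 3068 to 4341 counts and stood at 1331 CPM per kilobase, below RPS27 at 3472 and below the members' median of 1780. RPL36AL had 2533 to 2986 counts while RPL36A had 9 to 20, so the paralogue carried nearly all counts of the pair, with the limit on RPL36A given above. RPS27L shared 0.0% of its windows and RPL36AL 36.1%.

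**Figure D3:**
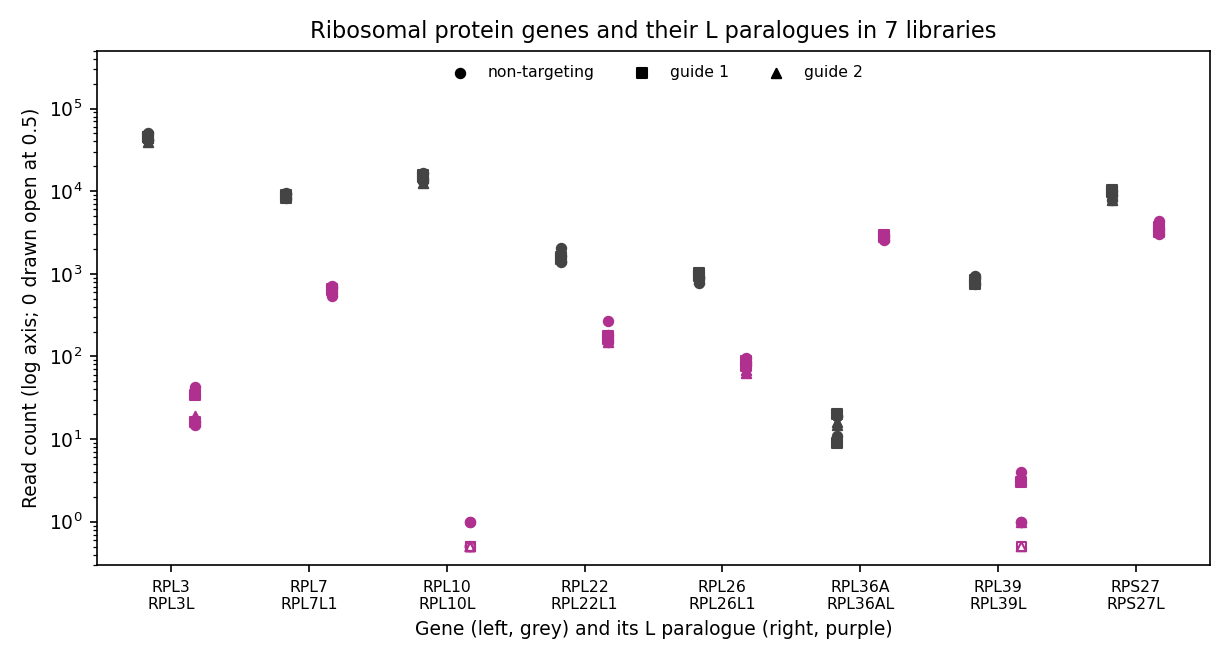
Read counts (log axis) of each of 8 genes and its L paralogue in the 7 libraries, with marker shape for the group; a count of 0 is drawn open at 0.5. RPL36AL is the only L gene of the 8 above its partner, at 2533 to 2986 counts against 9 to 20.

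The members moved together from library to library, and the size of the move went with base composition. As the median over 84 tested members, the deviation from a gene's mean log2 CPM over the 7 libraries was -0.16, 0.07 and 0.11 in the control libraries, 0.08 and 0.06 under guide 1, and -0.01 and -0.16 under guide 2. The same medians for mitochondrial ribosomal protein genes lay between -0.04 and 0.04, and for translation factors between -0.03 and 0.02. Though smaller, the mitochondrial medians were also lowest in non-targeting replicate 1 (-0.045), next lowest in guide 2 replicate 2 (-0.033) and highest in non-targeting replicate 3 (0.044). Translation factors were lowest in guide 2 replicate 1 (-0.030). Non-targeting replicate 1 was the lowest library for 50 members and guide 2 replicate 2 for 21, together 71 of 84, and non-targeting replicate 3 was the highest for 46. Members below their own mean numbered 69 in non-targeting replicate 1 and 75 in guide 2 replicate 2. The median deviation over all tested genes lay between -0.006 and 0.003 in every library. Counts of lowest and highest libraries were not made over all tested genes, so how far they are particular to the members was not tested.

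The members' coding sequences held from 40.4% to 63.0% G and C. In non-targeting replicate 1, the 41 members below the median GC content of 50.9% had a median deviation of -0.09, and the 42 at or above it had -0.24. In guide 2 replicate 2 these medians were -0.07 and -0.20, while in non-targeting replicate 3 they were 0.07 and 0.14. The Spearman coefficient of deviation with GC content over 83 members was -0.69, 0.72 and 0.61 in the control libraries, 0.63 and 0.41 under guide 1, and -0.14 and -0.65 under guide 2. Over 9424 tested genes with a transcript GC content it was -0.69, 0.43 and 0.32, then 0.42 and 0.28, then 0.08 and -0.32. These coefficients describe genes of the same libraries, which share depth and scaling. The part of base composition in the members' differences was not tested beyond the correction given below.

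Single members followed this in part. RPL35A, an anaemia gene of the large subunit with 47.9% GC, had 758, 747 and 757 CPM in the control libraries, 729 and 764 under guide 1, and 742 and 752 under guide 2, a coefficient of variation of 1.6%. RPS28, a small subunit protein with 62.3% GC, had 717, 964 and 1011 CPM, then 1009 and 983, then 868 and 725. RPL35A barely differed between any libraries, while RPS28 was lowest in the same pair of libraries as the summed share. Other members of low GC content did not stay level. RPL30, with 45.5% GC, had 145 and 146 CPM in that pair and a coefficient of variation of 16.5%. RPS12, with 46.7% GC, deviated by -0.23 in non-targeting replicate 1. RPL22L1, with the lowest GC content of the members at 40.4%, had 24.0 CPM in non-targeting replicate 1 and 13.95 to 17.3 in the other 6.

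**Figure D4:**
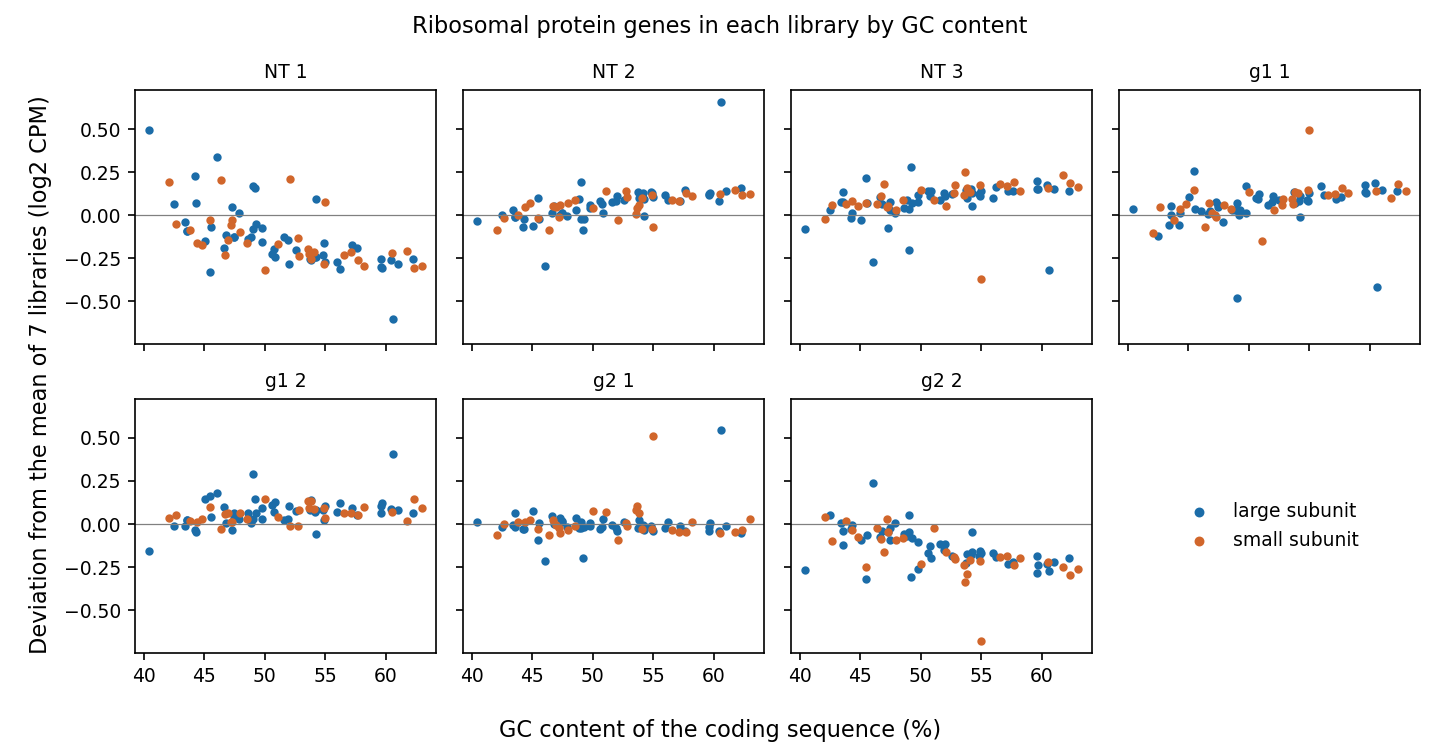
Deviation of each member's log2 CPM from its mean over the 7 libraries (vertical axis) against GC content of its coding sequence (%), 1 panel per library (NT non-targeting, g1 guide 1, g2 guide 2, then the replicate number), with points coloured by subunit. Points fall with GC content in non-targeting replicate 1 (Spearman -0.69) and guide 2 replicate 2 (-0.65) and rise in non-targeting replicate 2 (0.72).

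The first comparison asked whether both guides as one group changed these genes against the non-targeting guide. No member was called higher or lower among the 84 tested, by edgeR's quasi-likelihood test at an adjusted p under 0.05 over all 10212 tested genes. Over the whole list, 0.0% of tested genes were called higher and 0.0196% lower, so the members' count is read against a background of 2 genes. No member had an unadjusted p under 0.05, against 428 of all tested genes (4.19%). DESeq2 called no member either, and 0.0% of tested genes higher and 0.0392% lower. The median log2 fold change was -0.01 over the members, with -0.01 for the large and -0.02 for the small subunit, and -0.01 over all tested genes. It was positive for 32 members and negative for 52, against 46.1% and 53.9% of tested genes. The sign of the members' median rested on single libraries. It was -0.09 without non-targeting replicate 1, where 77 of 84 members were negative, against 5037 of 10107 tested genes. In that fit 28 members had an unadjusted edgeR p under 0.05, as did 1057 tested genes, against 428 tested genes with all libraries. The members' median was 0.04 without non-targeting replicate 3, where 61 members were positive, against 4872 of 10164 tested genes. No member was called in either case. The 95% interval lay within 0.5 of 0 on the log2 scale for 77 of 84 members, against 5370 of 10212 tested genes. The median SE was 0.10 for the members and 0.16 for all tested genes. No member was higher and 1 was lower in all 4 guide libraries than in all 3 non-targeting ones, against 3.03% and 2.37% of tested genes.

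The members of smallest p show how small the differences were. RPL22L1 had 24.0, 16.5 and 15.9 CPM in the control libraries, 17.3 and 15.1 under guide 1, and 16.999 and 13.95 under guide 2. The highest value was non-targeting replicate 1, and the groups overlapped. Its log2 fold change was -0.25 ± 0.16 (SE; edgeR adjusted p = 0.998). RPL26 stood at 0.14 ± 0.10, RPL26L1 at -0.22 ± 0.17, RPS13 at -0.11 ± 0.09 and RPL15 at -0.09 ± 0.08, all with the same edgeR adjusted p.

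With guide 1 alone, no member was called, where 0.0% of tested genes were called higher and 0.0294% lower. The median log2 fold change was 0.07 over the members (large 0.07, small 0.06) and -0.01 over all tested genes, and 66 of 84 members were positive where 48.5% of tested genes were, with 18 negative against 51.5%. Without non-targeting replicate 1 the members' median was -0.02, so its sign rests on that library. Unadjusted p was under 0.05 for 0 members and for 488 tested genes (4.78%). DESeq2 called no member, and 0.0% of tested genes higher and 0.0685% lower. Members higher in both guide 1 libraries than in all non-targeting ones numbered 4 and members lower numbered 2, against 11.3% and 10.3% of tested genes.

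RPL26, a large subunit protein, had 77.5, 82.4 and 84.3 CPM in the control libraries, 92.7 and 95.1 under guide 1, and 90.7 and 80.6 under guide 2. The guide 1 libraries were above all non-targeting ones, and the guide 2 libraries were not. Its log2 fold change with guide 1 was 0.21 ± 0.12 (SE; edgeR adjusted p = 0.877). RPL30 (0.20), RPS27 (0.17), RPS28 (0.15), RPL37 (0.15) and RPL22L1 (-0.22) were the next by unadjusted p, with edgeR adjusted p from 0.877 to 0.888.

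With guide 2, no member was called at full sample size, where 0.0% of tested genes were called higher and 0.00979% lower. The members' median log2 fold change was -0.08 (large -0.08, small -0.11) beside -0.02 over all tested genes. It was negative for 73 of 84 members where 55.3% of tested genes were, and positive for 11 where 44.7% were. The sign of the median did not change when any 1 library was left out, and its size ran from -0.17 without guide 2 replicate 1 to -0.03 without guide 2 replicate 2. Unadjusted p was under 0.05 for 0 members and for 281 tested genes (2.75%). DESeq2 called no member, and 0.00979% of tested genes higher and 0.0196% lower. No member was higher and 4 were lower in both guide 2 libraries than in all non-targeting ones, against 8.16% and 6.86% of tested genes. Among the members of smallest p, RPL26L1 was at -0.40 ± 0.21 (SE; edgeR adjusted p = 0.999), and RPS2 (-0.21), RPL30 (-0.22), RPL22L1 (-0.28) and RPL13A (-0.17) had the same adjusted p.

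The count for guide 2 turned on non-targeting replicate 1. Without non-targeting replicate 1, 18 members were called lower by edgeR, 9 of each subunit, in a table where 0.89% of 10107 tested genes were called lower and 0.376% higher. Their log2 fold changes ran from -0.36 to -0.23, and 17 of the 18 were among the 42 members of higher GC content. Without guide 2 replicate 2 as well, no member was called, against 0.124% of tested genes called higher and 0.306% lower. With a correction of each library for transcript GC content and all libraries kept, no member was called, as without it, against 0.00979% of tested genes higher and 0.0196% lower. The members' median under that correction was -0.08, with 74 of 84 negative.

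RPL30, a large subunit protein, was the lowest of the 18 by fold change (-0.36, edgeR adjusted p = 0.0165), and RPS2, a small subunit protein, was next (-0.34, edgeR adjusted p = 0.0160). RPS2 had 262, 335 and 357 CPM in the control libraries, 325 and 306 under guide 1, and 293 and 254 under guide 2. Non-targeting replicate 1 lay between the guide 2 libraries, so these groups overlap with that library and are apart without it.

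Guide 2 was also set directly against guide 1, which does not use the non-targeting libraries' level. No member was called, and 0.0% of tested genes were called in either direction. Unadjusted p was under 0.05 for 2 members and 292 tested genes (2.86%). DESeq2 called no member, and 0.0196% of tested genes higher and 0.0% lower. The median log2 fold change was -0.15 over members (large -0.14, small -0.18) and 0.00 over all tested genes, and 74 of 84 members were negative where 49.7% of tested genes were, with 10 positive against 50.3%. In 62 members both guide 2 libraries were below both guide 1 libraries and in 2 members both were above, against 22.2% and 21.9% of tested genes. The median was -0.07 without guide 2 replicate 2 and -0.21 without guide 2 replicate 1. By total counts without scaling it was -0.08, where the median over all tested genes was 0.07. With the GC correction it was -0.12, with 76 of 84 negative, where the median over all tested genes was -0.004.

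RPL30 had the smallest unadjusted p. It had 145, 196 and 212 CPM in the control libraries, 218 and 204 under guide 1, and 171 and 146 under guide 2. Both guide 2 libraries were below both guide 1 libraries, and non-targeting replicate 1 was as low as guide 2 replicate 2. Its log2 fold change was -0.41 with a 95% interval from -0.76 to -0.07 (edgeR adjusted p = 0.983). RPS23, a protein of the small subunit's decoding centre, was at -0.26 ± 0.12, RPS28 at -0.32 ± 0.15, RPL23A at -0.26 and RPL28 at -0.29, all with the same edgeR adjusted p. Without non-targeting replicate 1, which enters only the scaling, filter and shared spread here, RPL30 and RPS28 were called lower (-0.41 and -0.32, edgeR adjusted p 0.00813 and 0.0271), in a table where 0.139% of tested genes were called lower and 0.178% higher.

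**Figure D5:**
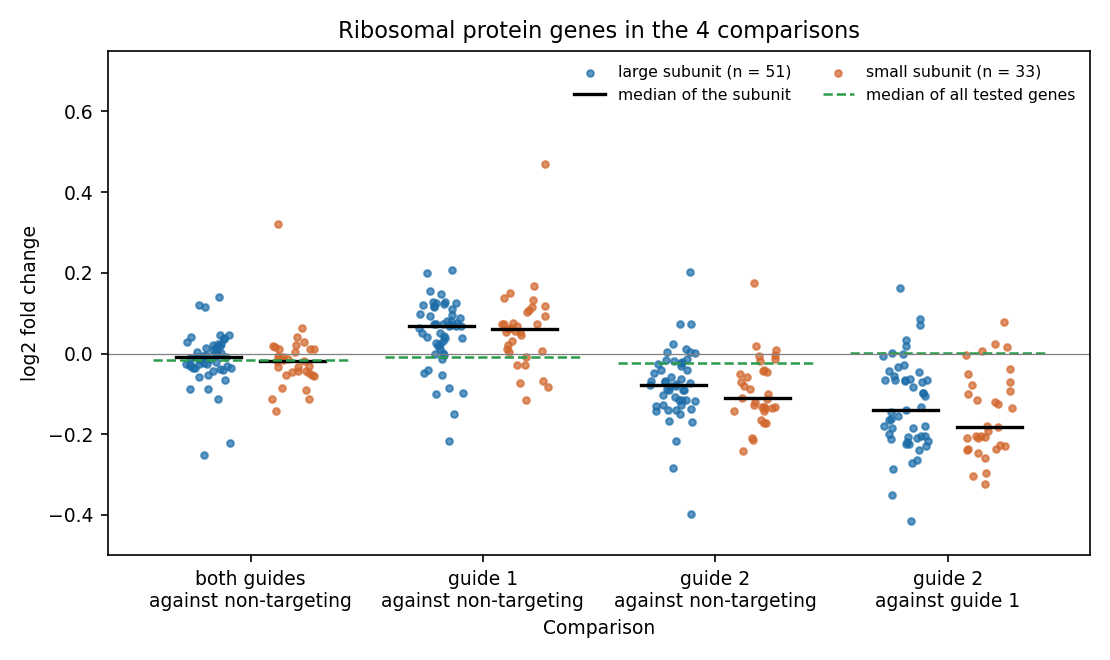
Log2 fold change of each of 84 tested members (points, by subunit) in the 4 comparisons, with the median of each subunit (black bars) and of all tested genes (dashed green). The subunit medians lie at -0.01 and -0.02 for both guides, 0.07 and 0.06 for guide 1, -0.08 and -0.11 for guide 2 and -0.14 and -0.18 for guide 2 against guide 1. The guide comparisons share their non-targeting libraries.

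Among genes with known roles, the 10 anaemia genes had a median log2 fold change of 0.00 for both guides, and none of the 10 passed the test in any comparison. They include RPS19, RPL5, RPL11, RPL35A, RPS24, RPS26, RPS7, RPS10 and RPS29, and the log2 fold changes of the 10 ran from -0.04 to 0.32. RPS19 was at 0.02 ± 0.11 (SE). RPS10 was highest at 0.32 ± 0.37, where 10 to 30 counts set the width. The interval of 9 of the 10 genes lay within 0.5 of 0, as did that of 5370 of 10212 tested genes.

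RPLP0, RPLP1 and RPLP2 form the stalk of the large subunit that recruits the translation factors. Per coding kilobase they stood at 3078, 5957 and 4297 CPM. RPLP0 had 2461, 3185 and 3237 CPM in the control libraries, 3083 and 3052 under guide 1, and 2896 and 2573 under guide 2, and its log2 fold change for both guides was -0.03 ± 0.10 (SE). RPS6, the small subunit protein phosphorylated by S6 kinase, had 2423, 2571 and 2564 CPM, then 2452 and 2487, then 2378 and 2390, and was at -0.05 ± 0.08. RPLP0 was lowest in non-targeting replicate 1, and RPS6 varied little. None of the 6 genes of the stalk and other roles, which include RPSA and RPL41, passed the test in any of the 4 comparisons with all libraries. RPLP0 and RPLP1 were among the 18 members called lower with guide 2 without non-targeting replicate 1 (-0.23 in both, edgeR adjusted p 0.0458 and 0.0487).

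Other genes of the pathway were read from the same fit, for both guides against non-targeting. None passed the test in either direction among 34 tested ribosome biogenesis genes (median log2 fold change 0.01), 37 translation factors (-0.04), 12 genes of ribosome rescue and recycling (-0.06), 15 of mTOR and S6 kinase signalling (-0.05) or 72 mitochondrial ribosomal protein genes (-0.02). Of the genes of smallest unadjusted p in each list, leaving out genes under 5 CPM, GAR1, part of the pseudouridylation complex, was at -0.29 and NOLC1, a nucleolar protein, at 0.15. PELO, which rescues stalled ribosomes, was at 0.33 (95% interval 0.03 to 0.63, edgeR adjusted p = 0.998) and GTPBP2 at 0.18. In their list 4 genes were positive and 8 negative. TSC1, which restrains mTOR, was at 0.21, EIF4EBP1, the repressor of cap-dependent initiation, at 0.25. In the mTOR list 5 genes were positive and 10 negative, from -0.74 to 0.25. MRPL41 was at -0.37 and MRPL35 at -0.18, both of the mitochondrial ribosome's large subunit. EIF1AX and EIF3J, both initiation factors, were at -0.33 and -0.22 and changed sign without non-targeting replicate 1.

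FAU and GNB2L1 encode ribosomal proteins under other symbols and lie outside the rule. FAU had 476, 640 and 683 CPM in the control libraries, 693 and 645 under guide 1, and 592 and 530 under guide 2. GNB2L1 had 1989, 2574 and 2501 CPM, then 2547 and 2409, then 2311 and 2021. Both were lowest in non-targeting replicate 1 and next lowest in guide 2 replicate 2, the same pair of libraries that had the lowest summed share of the members. For guide 2 against guide 1 neither was called. In that comparison the median log2 fold change was -0.15 for the members, -0.01 for translation factors and -0.01 for mitochondrial ribosomal protein genes. It was -0.01 for ribosome biogenesis, -0.04 for mTOR and S6 kinase signalling and 0.12 for ribosome rescue and recycling. The 10 erythroid markers had a median of -0.10, with 7 negative and 3 positive, and the 2 tested megakaryocyte markers -0.24. A lower level with guide 2 was thus not limited to the members.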

How the data were processed

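RNA of 7 HUDEP-2 libraries was made into cDNA with Smart-seq2 and indexed with a Nextera kit, per the labels; this chemistry marks no strand and uses no molecular identifiers. The authors deposited raw counts per gene symbol in 1 table, whose columns name their samples. STAR and GRCh37 (hg19) are named in the submitters' processing notes. The counting program, annotation and treatment of multiply aligned reads have no statement in the sources used here.

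The deposited counts went into edgeR 4.0.16 (R 4.3.3): filterByExpr with a minimum count of 10 kept 10212 genes, among them 84 of 86 members, TMM scaled the libraries, and 1 quasi-likelihood fit held all 7 of them under the 3 groups (4 residual degrees of freedom, biological coefficient of variation 12.5%). Tests were two-sided, with Benjamini-Hochberg adjustment over all tested genes and a threshold of 0.05. CPM here divides a count by its TMM-scaled library, and deviations used log2 of CPM plus 0.5. The scripts were tested on simulated data. Coding length, GC content and shared windows came from GENCODE v29 (85 of 86 members matched), and starts from RefSeq GRCh38.p14 promoters.

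Alternatives were DESeq2 1.42.0, its size factors, no TMM, TMM without ribosomal protein and globin genes, no count filter, a replicate block, a GC correction (lowess over transcript GC content as offsets, for the 92.3% of tested genes with a value), leaving out each library, and other denominators for the share. Leaving out 2 libraries together and restricting members by shared windows were chosen after seeing the data. Named members were the 6 of smallest unadjusted p in each comparison with at least 5 CPM, the paralogue pairs, the anaemia genes, the stalk list and the extremes of level per length; for other lists the 2 of smallest p for both guides, with the same CPM minimum. RPL17 was named after its values were seen. Some genes that the rule takes are not reported here. Members and lists were chosen with earlier results of these data known.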

Additional observations from a re-analysis of the deposited data

How the results depend on the processing

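The members' count of 0 called held in all 4 comparisons under DESeq2, each scaling, no count filter, the replicate block and the GC correction. Leaving out 1 library gave 0 to 18 called members for guide 2 and 0 to 2 for guide 2 against guide 1, the upper values without non-targeting replicate 1. With both libraries of lowest share left out, guide 2 kept only 1 library. The members' medians were then -0.06 for both guides, -0.02 for guide 1, -0.09 for guide 2 and -0.07 for guide 2 against guide 1. Only members with under 50% of windows shared gave medians of -0.01, 0.07, -0.10 and -0.17.

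Counts of all genes called moved more, listed for both guides, guide 1, guide 2 and guide 2 against guide 1, from 2, 3, 1 and 0. DESeq2 gave 4, 7, 3 and 2, no count filter 8, 19, 4 and 2, and the GC correction 8, 18, 3 and 2. Leaving out 1 library gave 1 to 53, 1 to 59, 1 to 128 and 0 to 32, and leaving out non-targeting replicate 1 and guide 2 replicate 2 gave 127, 106, 45 and 5. The cause was not tested.

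Deviations of same-numbered replicates from their group means had correlations of -0.19 to 0.03. In a group of 2 libraries these deviations mirror each other, so the values cannot decide whether the numbers pair the libraries. With the replicate block, 1, 2, 1 and 1 genes and no member were called, and the members' medians were 0.05, 0.11, -0.03 and -0.15. Only the non-targeting group has a replicate 3, so the block fits that library by itself and takes it out of the comparisons. Leaving that library out gave medians of 0.04, 0.11, -0.04 and -0.15, so the block is not a separate check.

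The share of counts was 11.7% (non-targeting), 12.2% (guide 1) and 11.3% (guide 2) with globin genes out of the total. For guide 1 it was 9.04% without mitochondrially encoded genes and 8.89% without L paralogues.

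Of 645 alternative values for 43 named gene and comparison pairs, 617 kept direction and call, 7 passed the threshold newly and 21 changed sign. No gene whose sign changed was called in any of the 4 comparisons with all libraries. With 1 library, or both of lowest share, left out, log2 fold changes for both guides ran from -0.35 to 0.033 in RPL22L1, -0.56 to 0.034 in EIF1AX, -0.34 to 0.022 in EIF3J, -0.11 to 0.13 in FAU, -0.13 to 0.045 in GNB2L1, -0.11 to 0.090 in RPS19, -0.17 to 0.74 in RPS10 and -0.15 to 0.037 in RPLP0, and from -0.43 to 0.068 in RPL22L1 for guide 2. The replicate block gave 0.025 in GNB2L1 and 0.042 in RPLP0, and the GC correction gave -0.017 in RPS19.

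Depth limits members of few counts, such as RPS10 and RPL36A. With 2 or 3 libraries a group, small differences could not be detected. The 95% intervals given are for single genes and are not adjusted over all tested genes, so they are not the limit of detection. Some excluded 0 where the test called nothing, as for RPL30 in guide 2 against guide 1 and PELO for both guides.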
